A study of Rattus norvegicus with 48 samples.

Results

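Testis RNA from adult male rats given the highest dose of myclobutanil was compared with testis RNA from rats given the vehicle, with 6 libraries on each side. The 12 libraries were chosen by title and dose label from 48 in the series, which also holds testis at 30 and 150 mg/kg and liver at every dose. The animals were Crl:CD (SD) rats, a Sprague-Dawley stock, aged 8 to 10 weeks when the study began, and each was gavaged once a day for 14 days. Vehicle rats received corn oil at 4 ml/kg with a dose of 0 mg/kg, and treated rats received 400 mg/kg with the same corn oil volume on their label. Polyadenylated RNA of the whole organ was sequenced, so fewer cells of a type and less RNA per cell cannot be told apart.

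Myclobutanil is a triazole fungicide that blocks a cytochrome P450 of fungal sterol synthesis. Rats carry the corresponding enzyme, and other P450 enzymes in the Leydig cells of the testis make testosterone from cholesterol. Most testis RNA comes from germ cells at successive stages of spermatogenesis, which are supported by Sertoli cells and depend on testosterone. The comparison asks which testis transcripts differ after 14 days at the top dose. The files give Ensembl gene IDs, and 0 of the 32545 IDs were paired with a symbol in the reference used here, so testis marker genes and genes of sterol or steroid synthesis were not looked up. Genes are described by expression level, by their ratio to liver and, for 4 of them, by ID.

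Gene reads ranged from 32.0 to 45.5 M per vehicle library and from 30.9 to 43.1 M per 400 mg/kg library. Libraries 2407 and 2408 carry conflicting labels: title and dose place both in the vehicle group, but a further label gives myclobutanil. Both were treated as vehicle here, with the main counts repeated without them. Depth and the share of reads of low mapping quality divided the 24 testis libraries into 3 sets, which no label names. The first set, with 2.72% to 2.84% of reads of low quality, held 5 vehicle and 5 30 mg/kg libraries, and the second, with 2.52% to 2.57%, held 5 150 mg/kg and 5 400 mg/kg libraries. The third, with 43.1 to 49.2 M gene reads against at most 38.3 M elsewhere, held 1 library of each dose, 2408 and 2421 among them. Outside the third set, dose and set cannot be told apart in the comparison of 400 mg/kg with vehicle.

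Of 23609 genes with a read in the 12 libraries, 17261 passed the filter on low counts and were tested. At 400 mg/kg 319 genes rose, 1.85% of those tested, and 254 fell, 1.47%, at an adjusted p under 0.05 by edgeR's quasi-likelihood test, in all 3.32%. The changes were small. The middle 50% of genes that rose changed by 1.14-fold to 1.27-fold, and the middle 50% of those that fell by 1.14-fold to 1.30-fold. A change of at least 1.5-fold was reached by 23 genes that rose and 27 that fell, and of at least 2-fold by 4 and 13. In a test against a change of 1.5-fold, edgeR's glmTreat called 0 genes (0%), with 70 at an unadjusted p under 0.05. Leaving out vehicle 2407 and 2408 left 114 genes higher (0.653%) and 128 lower (0.733%), in all 1.39%, and 211 of these 242 were among the 573. Single libraries also moved the count: it was 159 without 400 mg/kg 2423, 256 without 400 mg/kg 2421, 285 without vehicle 2408, 290 without vehicle 2404, 325 without 400 mg/kg 2426, and 331 and 361 without vehicle 2405 and 2406.

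**Figure D1:**
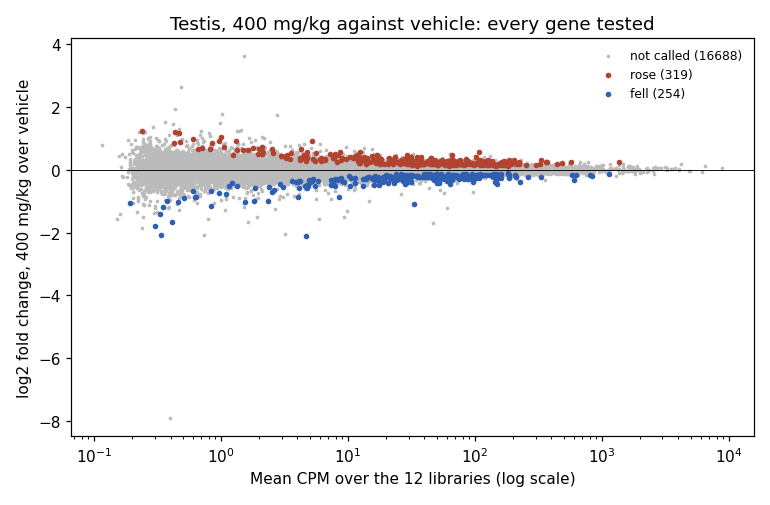
Log2 fold change of 400 mg/kg over vehicle (y axis) against the mean CPM (counts scaled to library size) over the 12 testis libraries (x axis, log scale), with 1 point per gene tested. The 319 genes that rose and the 254 that fell lie close to 0 where expression is high, and further from it where expression is low.

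Called genes were mostly of moderate to high expression, measured in CPM, that is gene counts scaled to a common library size after TMM normalisation. Their median level was 35.6 CPM among those that rose and 31.1 CPM among those that fell. The band from 10 to 100 CPM held 6488 tested genes, of which 200 rose (3.08%) and 153 fell (2.36%). Over 100 CPM there were 2239 genes, with 59 that rose (2.64%) and 43 that fell (1.92%). Lower counts were seen at low expression. From 1 to 10 CPM, 48 genes rose and 43 fell out of 5756, and under 1 CPM 12 rose and 15 fell out of 2778. These counts rested on single libraries: over 100 CPM the genes that fell numbered 9 without vehicle 2408, 9 without 400 mg/kg 2423 and 8 without vehicle 2407 and 2408. Under 1 CPM they numbered 16, 7 and 16 in the same fits, so without 2408 fewer genes fell over 100 CPM than under 1 CPM. The median change shrank as expression grew. Among genes that rose it was 1.86-fold under 1 CPM, 1.38-fold at 1 to 10, 1.18-fold at 10 to 100 and 1.15-fold over 100 CPM. The median standard error over all genes tested in a band fell the same way, from 0.26 on the log2 scale under 1 CPM through 0.13 and 0.062 to 0.050 over 100 CPM. A change of 1.15-fold was within the standard error of most genes under 1 CPM and was not detectable there at this depth.

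**Figure D2:**
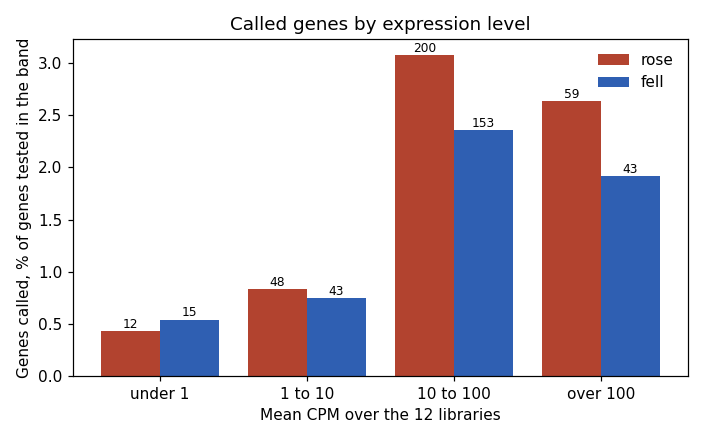
Share of the genes tested that rose (red) or fell (blue) at 400 mg/kg, in percent, in 4 bands of mean CPM over the 12 libraries; the number on each bar counts genes. The share called was 5.44% at 10 to 100 CPM and 0.972% under 1 CPM.

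Genes were also grouped by the ratio of their level in testis to that in liver, taken from the 30 mg/kg groups of both tissues. The testis libraries of that dose entered the fit but not the contrast, and no test of a difference between the classes was made. Among 3883 genes that were 2 to 8-fold higher in testis, 117 rose (3.01%) and 46 fell (1.18%). Among 2842 genes that were 2 to 8-fold higher in liver, 21 rose (0.739%) and 48 fell (1.69%). Where liver was higher by over 8-fold, 10 rose and 19 fell of 1623 genes. The 4609 genes more than 8-fold higher in testis, the most testis-restricted class, divided evenly, with 77 higher and 80 lower. Genes within 2-fold of their liver level had 94 that rose and 61 that fell out of 4304. The median log2 fold change over all genes of a class, called or not, was -0.049 in the class highest in liver, -0.021 in the next, 0.0032 within 2-fold, and 0.012 and 0.0027 in the classes higher in testis. These classes differ in expression, with a median of 2.48 CPM in the class highest in liver and 21.5 CPM in the most testis-restricted class. The 2 classes at 2 to 8-fold were close, with medians of 7.1 CPM where liver was higher and 6.5 CPM where testis was higher. The part of expression level in these counts was not tested.

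ENSRNOG00000012393 had the highest fold change among the genes that rose with a mean of at least 1 CPM and all 6 treated libraries above the vehicle mean. It ranged from 2.92 through a median of 3.81 to 4.00 CPM in vehicle libraries, and from 5.17 through 7.06 to 8.47 CPM at 400 mg/kg. The groups did not overlap, and the means were 3.64 ± 0.43 and 6.84 ± 1.23 CPM (SD, n = 6). The gene was thus 1.88-fold higher (log2 0.91 with a standard error of 0.15, edgeR adjusted p = 0.00385). At 30 and 150 mg/kg, set against the same vehicle libraries, it was higher by 0.43 (adjusted p = 0.306) and 0.32 (adjusted p = 0.788) on the log2 scale. In the third set the vehicle library had 3.91 CPM, the 30 mg/kg library 6.02, the 150 mg/kg library 2.87 and the 400 mg/kg library 5.68 CPM, so 30 mg/kg was the highest and 150 mg/kg the lowest. Without vehicle 2407 and 2408 the log2 fold change was 0.97 (adjusted p = 0.0135), and with the set as a term it was 0.70 with 2 levels (SE 0.23, adjusted p = 0.318) and 0.26 with 3 levels (SE 0.24, adjusted p = 0.838). In liver the gene did not pass the test, with a vehicle mean of 6.93 ± 0.87 and a treated mean of 6.51 ± 0.58 CPM (SD, n = 6; edgeR adjusted p = 0.562).

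ENSRNOG00000043280 was the most abundant gene that rose under those conditions. Vehicle libraries had 1096 to 1385 CPM with a median of 1280, and 400 mg/kg libraries had 1289 to 1614 CPM with a median of 1520. The groups overlapped, because vehicle 2407 and 2408, at 1323 and 1385 CPM, lay above the lowest treated library. The means were 1250 ± 108 and 1490 ± 119 CPM (SD, n = 6), which is 0.25 on the log2 scale (standard error 0.070, edgeR adjusted p = 0.0433). At 150 mg/kg the libraries spanned 1265 to 1776 CPM, and the log2 fold change against the same vehicle libraries was 0.31 (adjusted p = 0.209). The call was lost with the set as a term of 2 levels (0.13, adjusted p = 0.702) and on leaving out any 1 of 9 libraries (vehicle 2403 to 2406 and 400 mg/kg 2421 and 2423 to 2426), with adjusted p from 0.0530 to 0.0983. CPM values here were scaled within each tissue and do not give a ratio between tissues. With both tissues scaled together, the 30 mg/kg groups put the gene 32.0-fold higher in testis than in liver. In liver it rose from 18.0 ± 5.1 to 34.8 ± 11.8 CPM (SD, n = 6; log2 fold change 0.95, adjusted p = 0.0190 by edgeR).

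ENSRNOG00000026415 had the lowest log2 fold change under the same conditions, -2.13 (SE 0.39, adjusted p = 0.0072 by edgeR). Vehicle libraries ranged from 1.56 through a median of 7.60 to 12.1 CPM, and 400 mg/kg libraries from 1.16 through 1.63 to 2.46 CPM. Its level followed the library set. The 10 libraries of the first set, vehicle and 30 mg/kg alike, had 6.30 to 12.1 CPM, and the 14 others had 1.05 to 2.46 CPM at every dose. Within the third set the vehicle library had 1.56 CPM and the 400 mg/kg library 1.63 CPM. With the set as a term of 2 levels the log2 fold change was -0.04 (SE 0.29, adjusted p = 0.98).

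ENSRNOG00000023812, by contrast, was the gene called with the set as a term of 2 levels, and the only one. It ranged from 2.83 through 2.88 to 4.13 CPM in vehicle libraries and from 1.35 through 1.85 to 2.49 CPM at 400 mg/kg, without overlap. The means were 3.12 ± 0.51 and 1.93 ± 0.48 CPM (SD, n = 6), which is -0.70 on the log2 scale (standard error 0.19, edgeR adjusted p = 0.0369). In the third set it was at 4.13 CPM with vehicle, 4.94 at 30 mg/kg, 2.21 at 150 mg/kg and 1.98 CPM at 400 mg/kg. With the set as a term of 2 levels the log2 fold change was -1.26 (SE 0.21, adjusted p = 0.0489), and with 3 levels it was -1.32 (adjusted p = 0.403). Vehicle 2408, the highest of its group, carries conflicting labels. Without it the log2 fold change was -0.60 (adjusted p = 0.0945), and without 2407 and 2408 it was -0.61 (adjusted p = 0.131). The call was also lost without any 1 of vehicle 2404, 2405 and 2406 or 400 mg/kg 2421, 2422, 2424 and 2426, with edgeR adjusted p from 0.0507 to 0.0813.

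**Figure D3:**
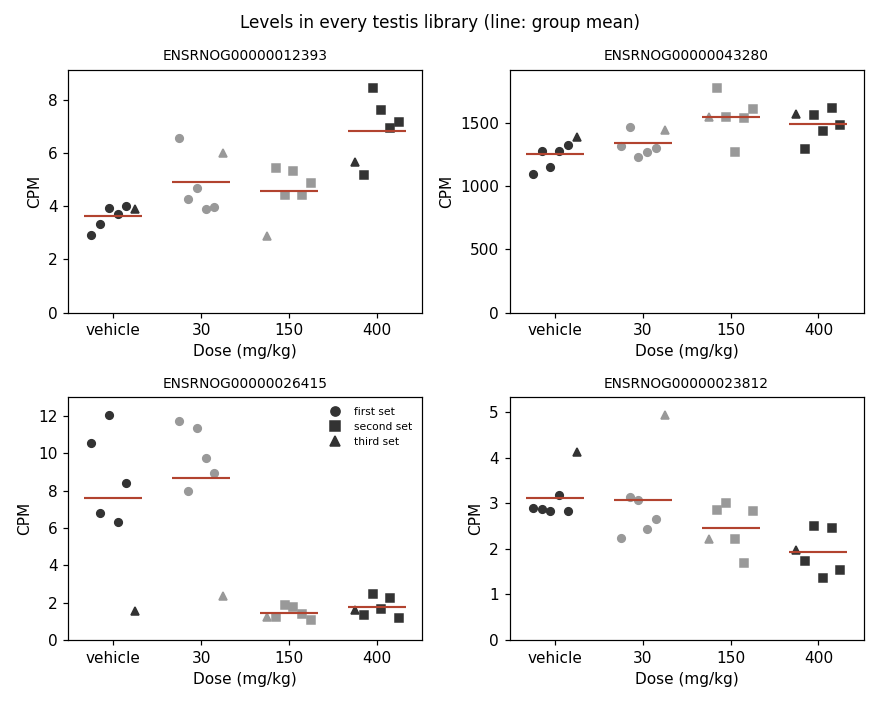
CPM (y axis, from 0) of the 4 genes given by ID in each of the 24 testis libraries, by dose in mg/kg (x axis), with black points for vehicle and 400 mg/kg, grey points for 30 and 150 mg/kg, shapes for the 3 library sets and red lines for group means. ENSRNOG00000012393 at 400 mg/kg, from 5.17 to 8.47 CPM, lies above every vehicle library, while ENSRNOG00000026415 is high in the first set, from 6.30 to 12.1 CPM, and low in the others.

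The 10 genes with the highest rise had vehicle means of 0.906 to 3.82 CPM and log2 fold changes of 0.56 to 0.91. The gene second to ENSRNOG00000012393 went from 0.906 ± 0.148 to 1.70 ± 0.257 CPM (SD, n = 6; 0.90 in log2, standard error 0.18, edgeR adjusted p = 0.0105), without overlap, and in liver it had a log2 fold change of -0.34 (adjusted p = 0.0657). The 10 lowest falls under these conditions ran from -2.13 to -0.63 with vehicle means of 1.38 to 45.3 CPM. The second lowest went from 45.3 ± 19.6 to 21.4 ± 5.62 CPM (SD, n = 6). Its log2 fold change was -1.08 (standard error 0.298), with an edgeR adjusted p just under the threshold, 0.05 after rounding. Beside ENSRNOG00000026415, 3 of these 10 lost nearly all of their change with the set as a term of 2 levels. The third lowest went from -1.02 to -0.070, the fifth from -0.99 to -0.11 and the eighth from -0.78 to 0.13, where the sign turned. The gene with the lowest unadjusted p under these conditions went from 50.0 ± 2.22 to 41.6 ± 2.12 CPM (SD, n = 6; -0.27 in log2, standard error 0.041, edgeR adjusted p = 0.00385), a small change set against a small spread. The 10 genes with the lowest unadjusted p under these conditions had no overlap between the 6 and 6 libraries in any case. The condition on the treated libraries favours such a lack of overlap. Across all genes tested, 273 (1.58%) lay higher without overlap and 264 (1.53%) lower, and these included 155 of the 319 and 137 of the 254; both counts come from the same contrast as the calls.

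Abundant transcripts were called too, and are ranked here under the same conditions. The third most abundant gene that rose went from 447 ± 8.79 to 514 ± 14.8 CPM (SD, n = 6; 0.20 in log2, standard error 0.043, edgeR adjusted p = 0.0127), without overlap. At 150 mg/kg its log2 fold change against the same vehicle libraries was 0.0066. The most abundant gene that fell was not tested in liver, where it did not pass the filter. Its ratio of testis to liver, 7490-fold, thus depends on the pseudocount of 0.1 CPM added to both levels. This gene went from 1190 ± 58.4 to 1070 ± 50.0 CPM (SD, n = 6, -0.15 in log2, standard error 0.041, edgeR adjusted p = 0.0381). The second, which went from 895 ± 16.0 to 781 ± 60.2 CPM (SD, n = 6; -0.20 in log2, standard error 0.055, edgeR adjusted p = 0.0464), rose in liver by 0.43 on the log2 scale (adjusted p = 0.000129). Its effect differed between the tissues (adjusted p = 2.86e-06 by edgeR on all 48 libraries), in a test that includes the testis libraries that chose the gene. The fifth went from 672 ± 43.3 to 530 ± 31.3 CPM (SD, n = 6; -0.34 in log2, standard error 0.062, edgeR adjusted p = 0.00497), the largest fall among the 5 most abundant. With the set as a term of 2 levels, all genes of this paragraph missed the threshold in edgeR. The rise was then 0.155 in log2 (adjusted p = 0.438). The falls were -0.186, -0.161 and -0.235 (adjusted p = 0.324, 0.525 and 0.398).

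Averaged per library as log2 CPM and set to 0 at the vehicle mean, the 319 genes that rose lay at -0.033 to 0.041 in vehicle libraries and at 0.20 to 0.36 at 400 mg/kg. The 254 that fell lay at -0.032 to 0.031 with vehicle and at -0.38 to -0.27 at 400 mg/kg. These libraries chose the genes, so the gap is a description. Among treated libraries 2422 was nearest to vehicle in both lists, at 0.20 and -0.27, and 2423 was the farthest, at 0.36 and -0.38. The 30 and 150 mg/kg libraries entered the fit, through its filter, scaling and dispersions, but not the contrast that chose the genes, and they are set against the same vehicle libraries. In a fit of the 12 libraries alone 783 genes were called, 490 of them among the 573. The genes that rose lay at 0.077 to 0.21 at 30 mg/kg and 0.034 to 0.17 at 150 mg/kg, and those that fell at -0.25 to -0.091 and -0.20 to -0.11. Their median log2 fold changes were 0.12 and -0.11 at 30 mg/kg, 0.087 and -0.082 at 150 mg/kg, and 0.25 and -0.26 at 400 mg/kg, so the middle dose did not lie between the other two. The mean share of reads outside genes was likewise higher at 30 mg/kg, 11.7%, than at 150 mg/kg, 11.3%. These levels were not tested against that share.

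**Figure D4:**
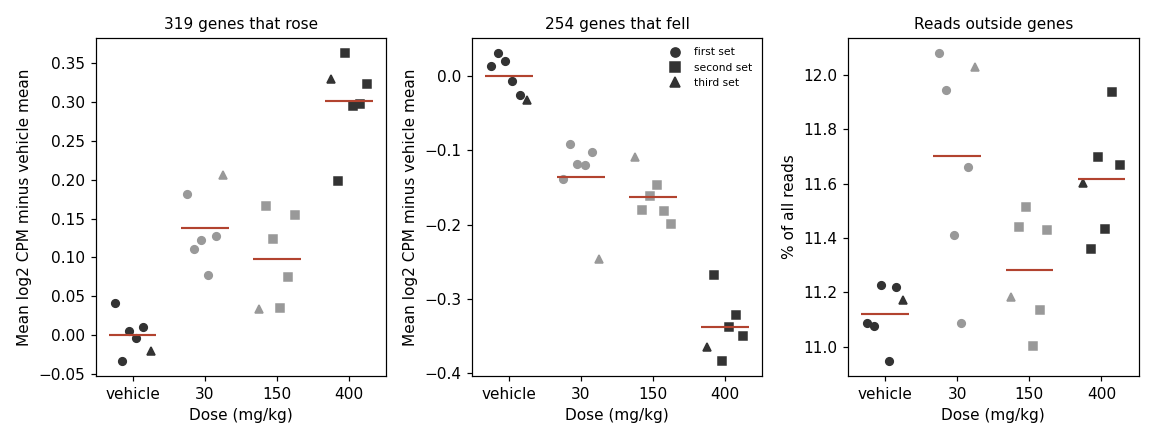
Mean log2 CPM of the genes that rose (left) and fell (middle), relative to the vehicle mean, and the share of all reads outside genes in percent (right), in each of the 24 testis libraries by dose in mg/kg (x axis), with black points for vehicle and 400 mg/kg, grey points for 30 and 150 mg/kg, shapes for the 3 library sets and red lines for group means. The y axis of the percent panel does not start at 0, and the 400 mg/kg libraries hold 11.4% to 11.9% of reads outside genes, all above the vehicle libraries.

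The contrast of 150 with 30 mg/kg takes its means from none of the 12 libraries, although filter and dispersions come from the same fit of 24. It has the same imbalance of sets, since 5 libraries of the first set stand against 5 of the second. In that comparison 0 genes were called higher and 2 lower by edgeR, 0.0116% of those tested, with 1827 at an unadjusted p under 0.05 and ENSRNOG00000026415 among the 2 (log2 fold change -2.60, adjusted p = 0.013). The 319 genes had a median log2 fold change of -0.029 there and the 254 a median of 0.032, beside 0.00095 over all genes tested. With the set as a term of 2 levels in the comparison of 400 mg/kg with vehicle, the median log2 fold changes of the 319 and 254 genes were 0.24 and -0.22, while the median standard error of the called genes grew from 0.061 to 0.091. The libraries that chose these genes enter this fit too, so medians of the same sign are largely built in. In that fit 1 gene was called, 0.00579%, with 1722 at an unadjusted p under 0.05, while the set term on its own passed the test for 8 genes (0.0463%), with a positive coefficient for 6 (0.0348%) and a negative one for 2 (0.0116%). The set term rests on vehicle 2408 and 30 mg/kg 2414 against the first set, since 150 and 400 mg/kg have 0 libraries there. The count of genes that pass thus says little about the size of a set effect.

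The third set allows 400 mg/kg and vehicle to be compared within a set, but with 1 library each and so without a test. To choose genes without this pair, the fit was repeated without vehicle 2408 and 400 mg/kg 2421, and it called 73 genes higher (0.421%) and 50 lower (0.289%), in all 0.71%. In that fit the median log2 fold changes were 0.29 and -0.41. In the pair left out, 2421 minus 2408, the same genes had medians of 0.24 and -0.24, beside 0.0045 over all genes. Of the 73 genes 67 were higher in 2421, and of the 50 genes 43 were lower, where 50.7% of all genes were higher. Genes within a library share its handling and are not replicates, and 2408 is 1 of the libraries with conflicting labels. In the same genes the third set's 150 mg/kg library lay on the other side of its 30 mg/kg library, with medians of -0.14 and 0.18. Both pairs also differed in the share of reads outside genes. It was 11.60% in 2421 against 11.17% in 2408, and 11.18% in 150 mg/kg 2415 against 12.03% in 30 mg/kg 2414. In each pair the share was higher in the library where the genes that rose were higher. Whether these medians go with dose or with this share was not tested.

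**Figure D5:**
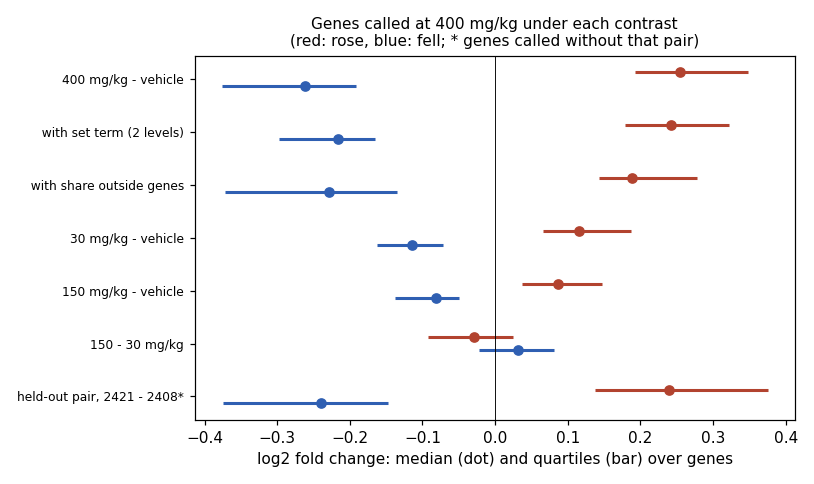
Log2 fold change (x axis; dot for the median over genes, bar for the quartiles) of the genes that rose (red) and fell (blue) at 400 mg/kg, under each contrast or term (y axis); the last line gives the genes called without libraries 2421 and 2408, measured in that pair. The medians for 150 minus 30 mg/kg are -0.029 and 0.032, close to 0, and those for the held-out pair are 0.24 and -0.24. The 30 and 150 mg/kg contrasts against vehicle share the vehicle libraries.

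The share of reads outside genes also differed between the groups. Reads that lay outside every gene made up 10.95% to 11.2% of all reads in vehicle libraries and 11.4% to 11.9% at 400 mg/kg, without overlap. The means were 11.1% ± 0.106 and 11.6% ± 0.206 (SD, n = 6; exact permutation p = 0.00216, 2-sided, the smallest possible, adjusted 0.0173 over 8 measures). Without vehicle 2407 and 2408 the difference was 0.53 percentage points (exact permutation test, adjusted p = 0.0254), and within the third set the shares were 11.2% and 11.6%. At 30 mg/kg the share was 11.1% to 12.1% and at 150 mg/kg at most 11.5%, and the means were 11.7% and 11.3%. The lowest dose thus had the highest mean of the 4 groups, above 400 mg/kg, and the share did not follow the order of doses. With this share as a term, the test of 400 mg/kg against vehicle called 3 genes higher (0.0174%) and 7 lower (0.0406%), in all 0.0579%, and the median log2 fold changes of the 319 and 254 genes were 0.19 and -0.23. These medians come from the libraries that chose the genes, so their sign is largely built in. The share itself was called for 799 genes, 242 that were higher with a larger share (1.4%) and 557 that were lower (3.23%), in all 4.63%. Among the 12 libraries the shares of the 2 groups did not overlap, and whether the calls go with dose or with this share was not tested.

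Shares of low mapping quality and of unaligned reads were also lower at 400 mg/kg, by 0.20 and 0.42 percentage points (exact permutation tests, adjusted p = 0.0346 for both). The first of these defines the sets, so its difference follows from their imbalance. Unaligned reads also went with the sets, with means of 4.24% at 30 mg/kg and 3.62% at 150 mg/kg, and in the third set the direction turned, 3.60% for vehicle 2408 against 3.88% for 400 mg/kg 2421. Leaving out 1 library ended this call in 8 of 12 cases. Total gene reads, genes detected, the share of the 10 most abundant genes and reads aligned at several places did not pass the test, with exact permutation p of 0.385 to 0.784 before adjustment. The 10 most abundant genes held 5.04% ± 0.228 of gene reads in vehicle libraries and 5.11% ± 0.206 in treated ones (SD, n = 6).

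In liver, 400 mg/kg against vehicle called 2608 genes, 19.6% of those tested there. Of the 319 genes that rose in testis, 265 were tested in liver, where 27 were higher and 23 lower. Of the 254 that fell, 201 were tested in liver, where 10 were higher and 25 lower. Over all 12365 genes tested in both tissues, 1269 were higher in liver at 400 mg/kg and 1143 lower, and the counts for the genes that rose were close to those shares. The liver medians of these genes were 0.029 and -0.036 on the log2 scale, beside -0.012 over all liver genes. The effect itself differed between the tissues, by edgeR on all 48 libraries, for 55 of the 319 and 60 of the 254, where 1524 of 18221 genes, 8.36%, differed in all. The same testis libraries chose these genes and enter this test, so an excess over that share is built in and nothing is read from it.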

How the data were processed

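Messenger RNA libraries from whole testis were made with a stranded kit, per the labels' protocols. CASAVA 1.8, HISAT2 and HTSeq 0.6.1 are named in the submitters' processing notes. For the build and for the strand option of the counter, a statement is not given in the sources. The authors deposited whole-number read counts per Ensembl gene, 1 file per library, not normalised. The 5 lines per file that name no gene, 34.9% to 36.5% of reads in the 12 libraries, entered neither library sizes nor tests.

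Groups came from titles and dose labels. The labels do not say that title numbers are animals, and a p-value here reflects variation among libraries, which may be technical. Pairs of libraries within the 2 groups had chi-square values of 6.59 to 13.6 times their degrees of freedom (30 pairs), well beyond sampling noise. Counts of all 24 testis libraries were fitted by edgeR 4.0.16 under R 4.3.3 (TMM scaling, filterByExpr, robust quasi-likelihood fit, 1 mean per dose, 2-sided tests, Benjamini-Hochberg adjustment over all genes tested, threshold 0.05). Standard errors are the log2 fold change divided by the root of F, and log2 CPM used a prior count of 2. Library shares were compared with exact permutation tests. Alternatives used DESeq2 1.42.0 and limma-voom 3.58.1, the latter with an estimated quality weight per library. Further alternatives used RLE scaling, other filters, other sets of libraries and terms for library set or share outside genes. The fit was tested on simulated counts that held no difference between library sets. That test says nothing on how the sets affect the calls. Library sets were cut at the widest gap in gene reads (40.7 M) and then in low mapping quality (2.65%).

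Members, lists and tests were chosen with earlier results of these data known. Without symbols the gene and marker lists could not be applied, and the rule for named genes was cut to 4 IDs: its highest and most abundant rise, its lowest fall, and the gene called with the set as a term. This cut, the tissue ratio (pseudocount 0.1 CPM), the pair left out and the term for the share outside genes were chosen after values were seen.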

Additional observations from a re-analysis of the deposited data

Results flagged for a closer look

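Dixon's test was made 24 times, for 8 library measures and 4 genes in the vehicle and 400 mg/kg groups, and in 5 of them 1 library stood apart from the rest of its group, where chance marks about 1 in 20. All 5 concern the third set. Vehicle 2408 had the most gene reads of its group, 45.5 M, the most genes detected, 21011, and the lowest share of reads of low mapping quality, 2.53%. It also had the highest level of ENSRNOG00000023812 among vehicle libraries, 4.13 CPM. At 400 mg/kg, library 2421 had the most gene reads, 43.1 M. Depth and mapping quality define the sets, so those values are no separate finding.

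The effect of 400 mg/kg differed between testis and liver, by the test of the difference in edgeR on 48 libraries, for 2 of the 4 genes given by ID. The testis libraries that chose these genes enter that test. For ENSRNOG00000012393 the log2 fold change was higher in testis by 0.98 (adjusted p = 4e-04). For ENSRNOG00000026415 it was -2.16 in testis relative to liver (adjusted p = 0.000113), and in testis this gene followed the library set.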

How the results depend on the processing

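Of the 573 genes called, 319 higher and 254 lower, 5 fits (RLE scaling, no filter, a filter at a mean of 1 CPM, the 12 libraries alone, a non-robust fit) gave 401 to 783 in all. DESeq2 called 1123 (645 higher, 478 lower) and limma-voom 1138 (618 and 520). Leaving out vehicle 2407 and 2408 gave 242 (114 and 128), and leaving out 1 library gave 159 to 809 in all, 87 to 466 higher and 72 to 343 lower. With a 2-level set term 1 gene was called (0 higher, 1 lower), and with 3 levels 0 by edgeR (0 higher, 0 lower; 1293 at an unadjusted p under 0.05). A test against 1.5-fold gave 0 (0 and 0). Alternatives chosen after seeing the data gave 123 without 2408 and 2421 (73 and 50), 181 without the 4 libraries of the third set (92 and 89), and 10 with the share outside genes as a term (3 and 7). Fits with fewer libraries gave fewer calls in some cases and more in others, such as 809 without 400 mg/kg 2422. The causes of these differences were not tested. Of the 573 genes, 564 to 573 had the same sign in every one of these fits except the filter at 1 CPM, which tested fewer genes and had 545. All of these fits share libraries with the one that chose the genes, so a shared sign is largely built in.

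No value of the 4 genes given by ID reversed under any alternative. With the share outside genes as a term all 4 missed the threshold in edgeR, with ENSRNOG00000012393 at 0.65 (adjusted p = 0.0805), ENSRNOG00000043280 at 0.11 (0.499), ENSRNOG00000026415 at -2.04 (0.0762) and ENSRNOG00000023812 at -1.06 (0.0522). By limma-voom ENSRNOG00000026415 was at -1.84 (adjusted p = 0.054). By expression band, counts without 1 library ran from 58 to 292 higher and 43 to 214 lower at 10 to 100 CPM, and from 19 to 76 and 9 to 54 over 100 CPM. Differences in the share of unaligned reads were -0.524 to -0.355 percentage points without 1 library, and 8 of 12 such tests missed the threshold. Counts by gene list, the share of mitochondrial reads and their alternatives were not run, for lack of gene names. No paired analysis was possible because each title number occurs once among the testis libraries.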
